A study of Homo sapiens with 17 samples.

Results

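The 10 genes described here encode transcription factors that cells switch on early after a stimulus. They are the FOS family (FOS, FOSB, FOSL1 and FOSL2), the JUN family (JUN, JUNB and JUND), the zinc finger factors EGR1 and EGR3, and the stress factor ATF3. They were chosen by symbol, and all 10 were found among the 60662 genes that the tables of cultured cells and of tumors both hold. The RNA came from CHP-134, an established line of human neuroblastoma cells with amplified MYCN. In culture they received the solvent DMSO (2 libraries) or all-trans retinoic acid (ATRA) at 2 µM, taken at 1, 3 or 6 days (2 libraries a time). The labels name no DMSO library of 1, 3 or 6 days, so ATRA and time in culture cannot be told apart. The paper states that most cells of this line die over the full ATRA course, while a small part survives with neuron-like features. The share of such surviving cells in the libraries of 6 days was not tested. Change within cells and loss of other cells cannot be told apart there. Tumors grew from luciferase-labelled CHP-134 cells injected under the skin of female athymic nude mice, about 12 weeks old, which lack mature T cells. Of these tumors, 5 were controls and 4 came from mice given 13-cis-retinoic acid by oral gavage at 25 mg/kg, 2 times a day, on a schedule of 12 weeks (RA tumors). For its drug measurement the paper took tumors no later than 2 weeks after the last dose. The time from last dose to collection is not given for these libraries. All 17 libraries come from this 1 line. Cells and tumors were prepared with different library kits, so kit and growth setting cannot be told apart. In such bulk samples, fewer cells of a type and less RNA per cell cannot be told apart.

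AP-1 is a dimer of a FOS protein with a JUN protein, or of JUN proteins with each other, that binds DNA through a basic leucine zipper. FOS proteins cannot pair among themselves, while JUN proteins can. ERK and the stress kinases JNK and p38 raise the transcription of FOS, EGR1 and JUN within minutes of growth factor or stress signals, and ERK also stabilizes FOS and FOSL1 proteins. ATF3 is a basic leucine zipper protein of the same superfamily that can pair with JUN proteins. JUND is the family member that resting cells commonly keep expressed.

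Total counts ran from 31607051 to 39422897 per culture library and from 17266558 to 29078889 per tumor library, and all 10 genes passed the filter on low counts in both sets. The study calls its culture replicates independent without saying what was repeated, so tests there reflect how much these libraries vary. MYCN, a marker of this line, was at 892 to 3758 CPM (counts scaled by library size) over all groups. Of 10 neuroblastoma markers, 2 were called higher and 6 lower in control tumors than in DMSO cells (median log2 −1.501), against 31.5% and 11.4% of all genes. At 6 days of ATRA 3 were called higher and 4 lower (MYCN among them), against 18.8% and 12.3%. The 10 markers summed to 2661 to 4336 CPM in control tumors, 3141 to 3175 CPM in DMSO cells and 1912 to 1934 CPM at 6 days. The 7 endothelial markers summed to 3.20 to 6.80 CPM in control tumors and 2.72 to 4.07 CPM in RA tumors, and the 8 leukocyte markers to 2.503 to 4.35 and 2.005 to 3.04 CPM, with TYROBP at 0 counts in all tumors and AIF1 at 1 count over all of them. The 7 fibroblast markers summed to 32.5 to 42.4 CPM in control tumors, against 111 to 116 CPM in DMSO cells. The 7 skin and red cell markers summed to 9.28 to 11.7 CPM over both kinds of tumor.

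The stretches before the start sites of JUN, JUND, ATF3 and EGR1 are shown because these genes differed in culture on many reads and because each stretch holds a motif of this gene group. EGR3 was left out of the motif search, and no window was at hand for FOSL1. RefSeq promoter windows (GRCh38.p14, 250 bases before to 50 after the start) were used for 8 of the 10 genes, in 9 windows. They were searched on both strands for TGACTCA (the TRE, an AP-1 element), TGACGTCA (the CRE), TGACATCA (a TRE-like element) and the CArG box, the element of serum response factor. The CRE and the TRE-like element have the same length and differ in their letters, so no stretch was counted as both. The TRE was in 4.95% of all 35116 windows, the CRE in 1.85%, the TRE-like element in 2.61% and the CArG box in 1.29%. The sequences stop where the gene's annotated transcripts begin, are read 5′ to 3′ on the gene's strand, and have matches in capitals.
JUN (chr1:58784049-58784297, minus strand, TRE-like element): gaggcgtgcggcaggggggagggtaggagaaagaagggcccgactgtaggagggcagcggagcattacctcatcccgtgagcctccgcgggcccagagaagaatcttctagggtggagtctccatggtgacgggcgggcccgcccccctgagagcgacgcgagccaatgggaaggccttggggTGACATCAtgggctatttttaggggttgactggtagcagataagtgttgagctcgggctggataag
ATF3 (chr1:212565157-212565333, plus strand, TRE-like element): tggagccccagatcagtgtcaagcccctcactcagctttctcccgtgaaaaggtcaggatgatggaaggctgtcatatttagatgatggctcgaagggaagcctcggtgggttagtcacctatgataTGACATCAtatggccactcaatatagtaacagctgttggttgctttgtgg
JUND (chr19:18281623-18281872, minus strand, CRE): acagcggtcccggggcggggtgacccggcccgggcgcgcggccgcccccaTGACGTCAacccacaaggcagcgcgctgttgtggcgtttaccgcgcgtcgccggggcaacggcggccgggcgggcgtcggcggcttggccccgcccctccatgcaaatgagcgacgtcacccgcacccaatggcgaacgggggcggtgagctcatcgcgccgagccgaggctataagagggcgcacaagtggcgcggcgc
EGR1 (chr5:138465229-138465478, plus strand, 2 CArG boxes): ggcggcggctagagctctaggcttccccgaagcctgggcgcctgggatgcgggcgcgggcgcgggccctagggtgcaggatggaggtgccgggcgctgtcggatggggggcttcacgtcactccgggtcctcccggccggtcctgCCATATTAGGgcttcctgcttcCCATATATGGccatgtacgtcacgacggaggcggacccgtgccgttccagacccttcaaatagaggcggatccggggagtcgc
Counted from the RefSeq start, the JUN element lay 67 to 60 bases before it and that of ATF3 123 to 116 bases before it. The RefSeq start of ATF3 lies past the end of the stretch shown, which stops at the annotated start. FOSL2 held a TRE at 5 to 11 bases after its start. The windows of FOS, FOSB and JUNB held none of these letters.

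Compared per length, as reads scaled by exon length and library size (RPKM), the JUN family stood far above the FOS family in every library. The plot of per-length levels shows the order. In DMSO cells JUND was highest at 46.5 ± 1.13 RPKM (SD, n = 2), followed by JUN at 27.7 ± 0.609, JUNB at 10.3 ± 1.49, ATF3 at 4.02 ± 0.118, EGR1 at 1.39 ± 0.119 and FOSL2 at 1.15 ± 0.022. FOS followed at 0.154 ± 0.00972 RPKM, and FOSB, EGR3 and FOSL1, all under 0.1 RPKM, overlapped in their ranges. In control tumors JUN was highest at 34.7 ± 3.69 RPKM (n = 5) and JUND came second at 21.9 ± 3.13. There JUNB overlapped ATF3, FOSL2 overlapped EGR1, FOS overlapped FOSL1 and FOSB overlapped EGR3. The RA tumors kept JUN first, at 39.2 ± 4.31 RPKM (n = 4), and JUND second at 22.9 ± 3.47.

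**Figure D1:**
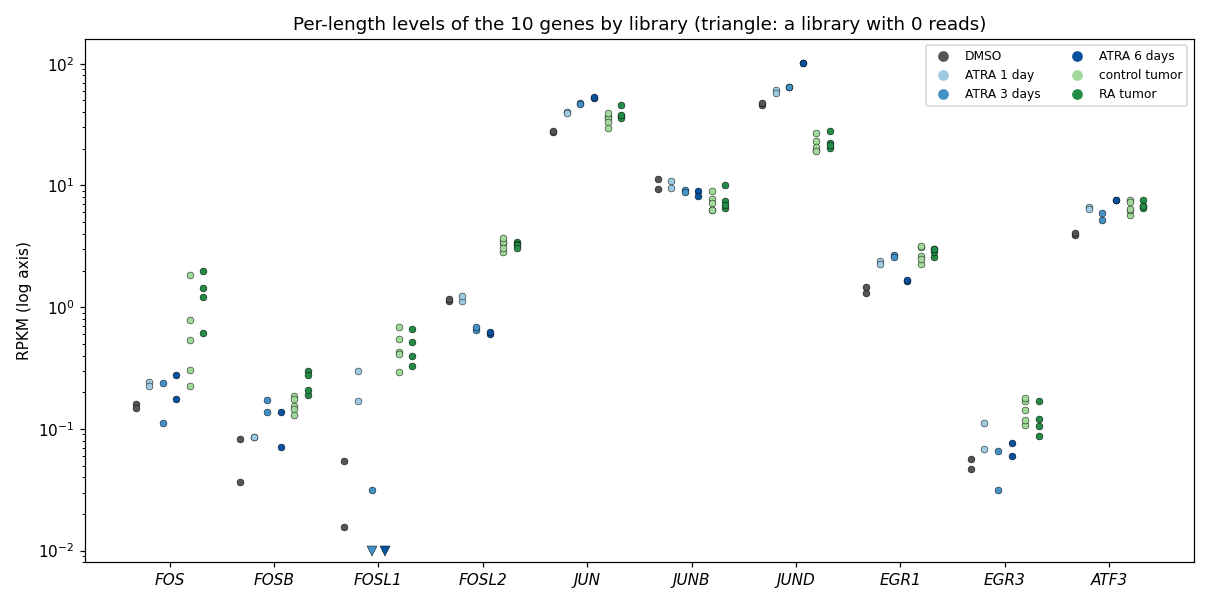
Level of each gene in each of the 17 libraries in RPKM on a log axis, with 1 point per library and a triangle where a library held 0 reads. JUND leads in all culture groups, up to 101 RPKM at 6 days, and JUN leads in both kinds of tumor.

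The balance between the families differed by group. The JUN family summed to 84.6 ± 3.24 RPKM in DMSO cells and 162 ± 0.0707 RPKM at 6 days of ATRA, while the FOS family summed to 1.40 ± 0.0481 and 0.945 ± 0.0121 RPKM (n = 2 each). With DMSO the ratio of JUN to FOS family RPKM was 57.5 and 63.7, and 1 day of ATRA gave 58.1 and 68.8. The libraries of 3 days had ratios of 117 and 120, and those of 6 days 169.9 and 173. It was 11.7 to 15.8 over the control tumors and 12.1 to 15.2 over the RA tumors. FOSL2 alone made up 79.1% and 85.3% of FOS family RPKM with DMSO and 63.6% and 66.6% at 6 days. JUND made up 54.4% to 55.5% of JUN family RPKM with DMSO and 62.2% to 62.3% at 6 days, but 31.96% to 35.7% in control tumors.

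**Figure D2:**
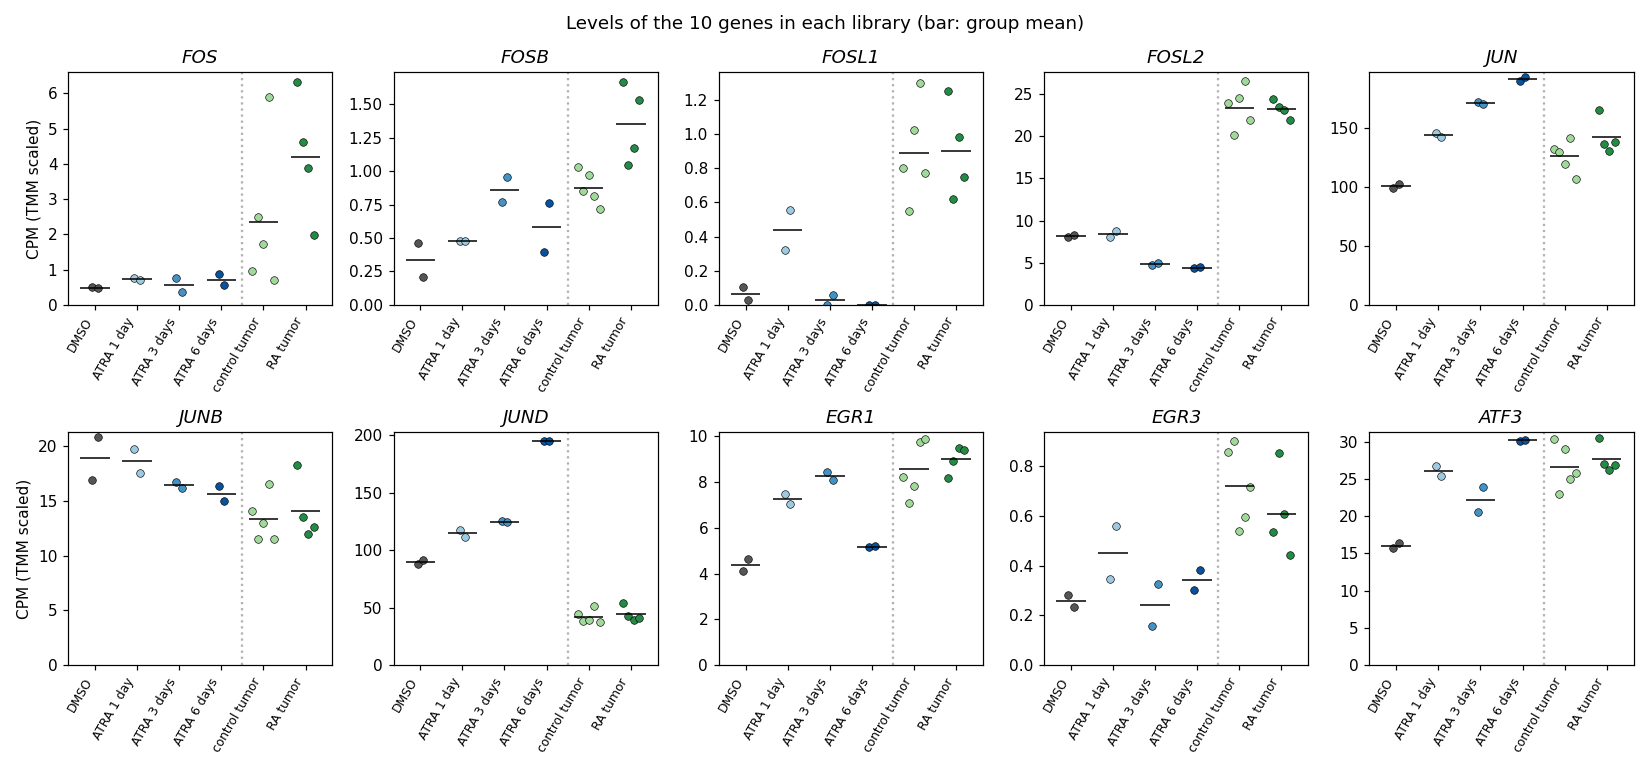
Level of each gene in each library in CPM after TMM scaling, on linear axes from 0, with a bar at the group mean; cells and tumors, on either side of the dotted line, were scaled separately. JUND reaches 195 CPM in both libraries of 6 days, and FOSL1 is at 0 in both.

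A difference was called where the FDR of edgeR's quasi-likelihood test was under 0.05 and the fold over 2, and a second count takes the FDR alone. After 1 day of ATRA, 1 of the 10 genes was called higher (FOSL1) and 0 lower, against 1.95% and 0.791% of all 20237 genes tested. On FDR alone 5 were higher and 0 lower, against 13.1% and 13.3% of all genes. After 3 days 1 was called higher (FOSB) and 0 lower, against 5.45% and 2.43% of all genes, and on FDR alone 5 were higher and 1 lower, against 21.9% and 23.1%. After 6 days 1 was called higher (JUND) and 1 lower (FOSL1), against 18.8% and 12.3% of all genes, and on FDR alone 3 were higher and 3 lower, against 38.7% and 36.4%. The 3 comparisons share both DMSO libraries. At 1 day 8 of the 10 genes had both libraries above both of DMSO and 0 below, against 30.4% and 29.5% of all genes. At 3 days 5 lay above and 2 below, against 35.5% and 34.6%. At 6 days 6 lay above and 3 below, against 45.3% and 41.3%, so such an order is common. The median log2 fold change of the 10 genes was 0.56, 0.33 and 0.47 at the 3 times, beside medians over all genes of 0.0026, 0.0086 and 0.0415.

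**Figure D3:**
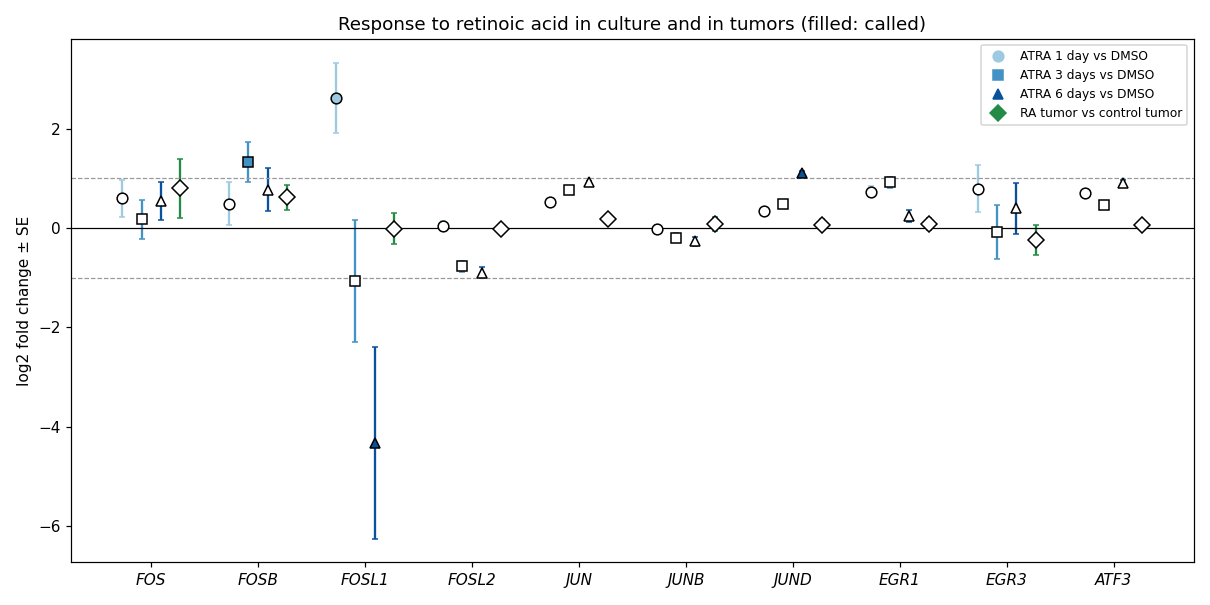
Log2 fold change with its SE for each gene at 1, 3 and 6 days of ATRA against DMSO and in RA against control tumors; filled symbols are called, dashed lines mark the 2-fold limit, and some error bars are smaller than the symbols. JUND at 6 days, FOSB at 3 days and FOSL1 at 1 and 6 days are filled, and the FOSL1 value of 6 days, from libraries at 0 counts, is a fitted value and no bound.

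FOS, whose product is the prototype partner of JUN, was barely expressed in culture. Its level was 0.513 and 0.469 CPM with DMSO (20 and 16 counts), 0.774 and 0.718 CPM at 1 day, 0.765 and 0.358 CPM at 3 days, and 0.881 and 0.559 CPM at 6 days. The ranges at 1 and 6 days lay above that of DMSO, and those at 3 days overlapped it. None of the 3 differences passed (log2 fold change 0.60 ± 0.37 (SE), FDR = 0.257; 0.18 ± 0.40, FDR = 0.758; 0.54 ± 0.38, FDR = 0.193).

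FOSB encodes another FOS protein with a strong activation domain. It was at 0.462 and 0.205 CPM with DMSO (18 and 7 counts), 0.480 and 0.479 CPM at 1 day, 0.765 and 0.954 CPM at 3 days, and 0.395 and 0.764 CPM at 6 days. Both libraries of 3 days lay above both of DMSO, where FOSB rose 2.52-fold (log2 1.33 ± 0.41, FDR = 0.00717). The call rested on few counts: DESeq2 gave an FDR of 0.0951, and the call was lost without DMSO library 2 (log2 0.89) or ATRA 3 days library 2 (1.16). At 6 days FOSB was not called (log2 0.77 ± 0.43, FDR = 0.106), but it was without DMSO library 1 (1.47) or ATRA 6 days library 1 (1.16).

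FOSL1, which encodes FRA1, a FOS protein without the activation domain of FOS, was the rarest member in DMSO cells. It had 4 counts and 1 count in the DMSO libraries, 12 and 21 at 1 day, 0 and 2 at 3 days, and 0 in both libraries of 6 days. In CPM this was 0.103 and 0.0293 with DMSO, and 0.320 and 0.559 at 1 day, so both libraries of 1 day lay above every other culture library. Its log2 fold change at 1 day was 2.63 ± 0.71 (FDR = 0.00453), and FOSL1 passed the filter on low counts only through the libraries of 1 day, so that a difference was built in. DESeq2 gave an FDR of 0.182, and the call was lost without DMSO library 2 (log2 2.06), without ATRA 1 day library 2 (2.17) and in the fit to all 17 libraries (2.60). From 1 to 3 days, where the filter built in a difference as well, FOSL1 fell from 33 counts to 2, and the 1-day level was 14.3 times that of 3 days, with an exact 95% counting interval of 3.65 to 123 (FDR = 0.000756; DESeq2 FDR = 0.0525). With 3 counts in place of 0 over the group of 6 days, the DMSO level was 1.48 times that of 6 days. This takes the 5 DMSO counts as exact and is no lower limit. At 6 days FOSL1 was called lower than with DMSO (FDR = 0.0426). That call was lost with DESeq2 (FDR = 0.0888), without robust estimation, without DMSO library 1 and without either library of 6 days (fitted log2 −3.19 to −4.34).

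FOSL2, encoding FRA2, was the FOS family gene with the most reads. It was at 8.10 and 8.33 CPM with DMSO and at 8.06 and 8.81 CPM at 1 day, and then at 4.69 and 4.92 CPM at 3 days and 4.34 and 4.47 CPM at 6 days. The libraries of 3 and 6 days all lay below those of DMSO and 1 day, which overlapped each other. Its differences from DMSO passed on FDR alone at 3 days (log2 −0.77 ± 0.11, FDR = 2.79e-07) and 6 days (−0.90 ± 0.11, FDR = 4.38e-09), and not at 1 day (0.04 ± 0.10, FDR = 0.8294).

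JUN, the gene of c-Jun, was higher at each later time. It was at 98.97 and 102 CPM with DMSO, 146 and 142 CPM at 1 day, 172 and 170 CPM at 3 days, and 189 and 192 CPM at 6 days. No group overlapped another in this series. Against DMSO the log2 fold changes of 0.52 ± 0.03, 0.77 ± 0.03 and 0.92 ± 0.03 passed on FDR alone (FDR = 1.13e-17, 2.23e-23 and 5.26e-27), and so did the steps from 1 to 3 days (0.25 ± 0.03) and from 3 to 6 days (0.16 ± 0.03).

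JUND carried the one call against DMSO that rested on many reads, with 3111 to 6618 counts in each culture library. It was at 88.1 and 91.2 CPM with DMSO, 117 and 112 CPM at 1 day, 125 and 125 CPM at 3 days, and 195 and 195 CPM at 6 days. At 6 days JUND rose 2.17-fold (log2 1.12 ± 0.03, FDR = 6.71e-29), and both libraries lay far above those of the other times. At 1 and 3 days it was higher on FDR alone (0.35 ± 0.03 and 0.48 ± 0.03). The share of all genes with a larger log2 fold change at 6 days was 17.5%.

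JUNB, which can oppose c-Jun in several cell types, did not follow the other JUN genes. It was at 16.98 and 20.8 CPM with DMSO, 19.8 and 17.6 CPM at 1 day, 16.7 and 16.2 CPM at 3 days, and 16.4 and 14.99 CPM at 6 days. Both libraries of 6 days lay below both of DMSO, by a log2 fold change of −0.26 ± 0.09 that passed on FDR alone (FDR = 0.0107), while 1 day overlapped DMSO (−0.01 ± 0.08, FDR = 0.934). JUNB shares 259 exonic bases with HOOK2 on the opposite strand, and the strand setting used in counting is not given in the sources used here, so part of its reads may be assigned between the 2 genes.

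EGR1, a zinc finger factor induced by ERK signals, had its highest culture values at 3 days. It was at 4.10 and 4.63 CPM with DMSO, 7.47 and 7.05 CPM at 1 day, 8.45 and 8.11 CPM at 3 days, and 5.16 and 5.20 CPM at 6 days. All treated libraries lay above those of DMSO, and those of 6 days lay below those of 1 and 3 days. EGR1 passed on FDR alone at 1 day (log2 0.74 ± 0.11, FDR = 2.96e-06) and 3 days (0.93 ± 0.11, FDR = 1.33e-08; 1.01 and called without DMSO library 2), and not at 6 days (0.25 ± 0.12, FDR = 0.0590). The step from 1 to 3 days did not pass (0.19 ± 0.11, FDR = 0.175). From 3 to 6 days it was lower on FDR alone (−0.68 ± 0.11, FDR = 1.93e-06).

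EGR3, a related zinc finger gene, stayed at 0.159 to 0.559 CPM in all 8 culture libraries and passed against DMSO at no time (FDR = 0.241, 0.929 and 0.487). Its counts were only 5 to 21 per library, and the SE of its log2 fold changes was 0.48 to 0.55. It overlaps a long noncoding RNA gene on the opposite strand by 164 exonic bases.

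ATF3, induced by many kinds of stress, was higher at every time of ATRA, though not in order of time. It was at 15.7 and 16.4 CPM with DMSO, 26.7 and 25.4 CPM at 1 day, 20.6 and 23.9 CPM at 3 days, and 30.2 and 30.2 CPM at 6 days. The groups did not overlap, with 3 days between DMSO and 1 day. Its log2 fold changes of 0.70 ± 0.06, 0.47 ± 0.07 and 0.91 ± 0.06 against DMSO passed on FDR alone (FDR = 3.70e-11, 1.94e-07 and 1.71e-15).

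Between successive times few calls were made. From 1 to 3 days 0 of the 10 genes were called higher and 1 lower (FOSL1), against 2.87% and 1.22% of all genes, and on FDR alone 2 were higher (JUN and JUND) and 3 lower (FOSL1, FOSL2 and ATF3), against 16.9% and 17.6%. From 3 to 6 days 0 were called in either direction, against 12.7% and 8.41% of all genes, and on FDR alone JUN, JUND and ATF3 were higher and EGR1 lower, against 34% and 34.1%. DESeq2 also called 0 from 3 to 6 days. Of all genes, 32.3% had both libraries of 3 days above both of 1 day, and 32.1% below. From 3 to 6 days these shares were 42.3% and 41%.

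The feedback and output genes of the ERK pathway, which acts upstream of several members, were examined beside the members. These 14 genes encode phosphatases of ERK (DUSP), Sprouty and SPRED inhibitors and ETV factors among others. After 1 day 6 of the 14 rose and 0 fell, against 1.95% and 0.791% of all genes: SPRY4 (log2 2.49 ± 0.27), ETV5 (2.43 ± 0.17), ETV4 (2.33 ± 0.24), DUSP6 (2.32 ± 0.25), ETV1 and DUSP5. The list's median log2 fold change was 0.73, beside 0.0026 over all genes. After 3 days 2 were called higher than with DMSO (ETV1 and DUSP6) and 1 lower (ETV4), against 5.45% and 2.43% of all genes, with a median of −0.08. Between 1 and 3 days ETV4 (−4.47 ± 0.33), ETV5 (−2.51 ± 0.18), SPRY4 (−2.25 ± 0.27), SPRY2 and DUSP4 fell and ETV1 (1.72 ± 0.05) rose. After 6 days ETV1 (5.90 ± 0.05), ETV5 (3.21 ± 0.17), SPRED3 (2.71 ± 0.11), DUSP6 (1.97 ± 0.26), DUSP5 and SPRY4 were called higher than with DMSO and 0 lower, which is 6 of 14 against 18.8% of all genes. ETV4 ranged from 3.46 to 3.496 CPM at 1 day, from 0.128 to 0.179 CPM at 3 days and from 1.12 to 1.34 CPM at 6 days.

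**Figure D4:**
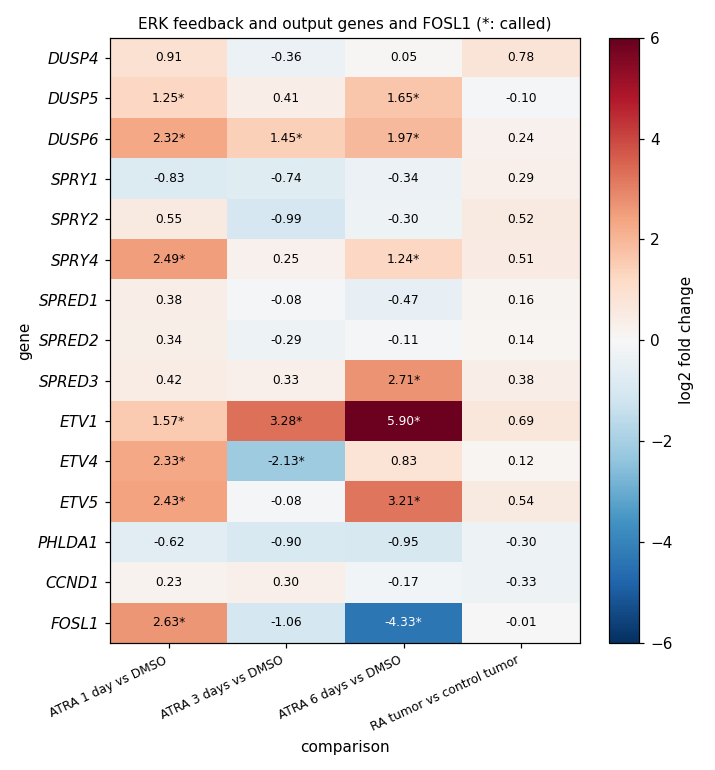
Log2 fold change of the 14 ERK feedback and output genes and of FOSL1 (rows) in 4 comparisons (columns), printed in each cell and colored from blue (lower) to red (higher), with an asterisk where called. The 1-day column holds 6 called list genes, and the tumor column holds 0.

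Other genes of the immediate early program were mostly not called, as were most of all genes tested. Of all genes, 1.95% were called higher and 0.791% lower at 1 day. These shares were 5.45% and 2.43% at 3 days, and 18.8% and 12.3% at 6 days. Of 15 other immediate early transcription factor genes, 12 were tested in cells, with 0 called at 1 and 3 days; at 6 days MAFF (log2 1.12 ± 0.17), a small MAF protein, rose and IER5 (−1.11 ± 0.06) fell. Of 14 tested immediate early genes that encode no transcription factor, CCN1, a matricellular protein, fell at 3 days (−1.34 ± 0.23) and at 6 days (−2.21 ± 0.25). At 6 days DUSP2 (−2.39 ± 0.13) also fell and BTG2 (1.07 ± 0.05), an antiproliferative gene, rose. Among 12 tested basic leucine zipper partner genes 1 was called higher at 1 day, 1 at 3 days and 2 at 6 days, against 18.8% of all genes at the last time, and 0 lower. At 6 days BATF2 (3.29 ± 0.61) and DDIT3 (1.39 ± 0.09), the CHOP gene of the unfolded protein response, rose. The 6 genes of serum response factor and its cofactors and the 2 EGR corepressor genes, NAB1 and NAB2, had 0 calls against DMSO at any time.

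Of 16 MAP kinase genes, 0 were called at 1 day, 2 rose at 3 days and 4 at 6 days, against 5.45% and 18.8% of all genes at 3 and 6 days, and 0 fell. MAPK12 (log2 2.04 ± 0.03 at 6 days) and MAPK11 (1.54 ± 0.08) encode p38 kinases, MAPK3 (1.79 ± 0.04) encodes ERK1, and MAPK10 (1.34 ± 0.03) encodes a JNK kinase found mainly in neurons. Of 15 known AP-1 target genes 8 were tested in cells, with 1 called higher and 0 lower at 1 day, 1 higher and 3 lower at 3 days, and 2 higher and 6 lower at 6 days. The shares of all genes called higher and lower were 1.95% and 0.791% at 1 day and 5.45% and 2.43% at 3 days. SPP1 (osteopontin) rose at 1 day (2.01 ± 0.43), 3 days (6.78 ± 0.20) and 6 days (7.97 ± 0.18), and VEGFA rose at 6 days (2.32 ± 0.05). Those that fell at 6 days, when 12.3% of all genes were called lower, included CD44 (−3.78 ± 0.47) and PLAUR (−2.98 ± 0.25), genes of matrix turnover and adhesion. The 10 heat shock genes, which respond to handling as immediate early genes do, summed to 6885 and 7039 CPM with DMSO and to 2885 and 2905 CPM at 6 days, when 7 of them fell against the same 12.3% of all genes, among them HSPE1 (−1.54 ± 0.03) and DNAJB1 (−1.45 ± 0.04). Their part in the member values was not tested.

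In tumors, 13-cis-retinoic acid moved no member past the test. With edgeR, 0 of the 10 genes were called in either direction, against 0.246% of all 21098 genes called higher and 0.0379% lower, and on FDR alone 0 passed, against 1.4% and 0.218%. At an unadjusted p under 0.05 edgeR counted 1 gene (FOSB), and DESeq2 also called 0. The median log2 fold change of the 10 genes was 0.07, beside −0.0081 over all genes.

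FOS varied most among tumors. It was at 0.972, 2.503, 1.73, 5.90 and 0.719 CPM in control tumors 1 to 5 and at 6.31, 4.62, 3.88 and 1.97 CPM in RA tumors 1 to 4. The groups overlapped, with control tumor 4 above 3 of the 4 RA tumors (log2 0.80 ± 0.59, FDR = 0.575). Leaving out 1 library gave log2 fold changes of 0.54 to 1.47, the highest without control tumor 4, and none was called. FOSB was at 1.03, 0.851, 0.972, 0.813 and 0.719 CPM in control tumors and at 1.67, 1.05, 1.17 and 1.53 CPM in RA tumors. All 4 RA tumors lay above all 5 controls for FOSB, an order that 3.66% of all genes tested showed. It rested on 13 to 45 counts a library, and the difference failed the correction (log2 0.62 ± 0.25, FDR = 0.236 with edgeR).

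FOSL1 (0.551 to 1.3 CPM in control and 0.621 to 1.25 CPM in RA tumors) and FOSL2 (20.2 to 26.5 and 21.9 to 24.5 CPM) overlapped between the groups, with log2 differences of −0.01 ± 0.31 and −0.01 ± 0.09. JUN was at 106 to 142 CPM, median 129, in control tumors and at 130 to 165 CPM in RA tumors (log2 0.18 ± 0.09, FDR = 0.353). JUNB, JUND, EGR1 and ATF3 differed by 0.05 to 0.08 on the log2 scale, each with an FDR over 0.8, and EGR3 by −0.24 ± 0.31 (FDR = 0.763). The ERK feedback and output genes had 0 of 14 called, with ETV1 at 2.76 to 7.93 CPM in control and 5.32 to 13.3 CPM in RA tumors. No gene of the other lists of this pathway was called in tumors either, and of the cell type markers PHOX2A alone was (log2 1.02 ± 0.21, FDR = 0.0312).

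Within each group of tumors the same library was often the highest. Control tumor 4 was the highest control and RA tumor 1 the highest RA tumor for 6 of the 10 genes: FOS, FOSL1, FOSL2, JUN, JUNB and JUND. Of all 21098 genes tested, 12.1% were highest in both libraries. JUNB was at 16.5 CPM in control tumor 4 against 11.5 to 14.1 CPM in the other controls, and at 18.3 CPM in RA tumor 1 against 12.0 to 13.5 CPM. JUND was at 51.6 CPM against 37.1 to 44.6 CPM, and at 54.03 CPM against 39.1 to 42.8 CPM. These libraries also had the highest share of counts from the mitochondrial genome in their groups, 5.74% and 5.07%, against 3.42% to 4.65% in the other controls and 3.10% to 3.82% in the other RA tumors, and its part in the result was not tested. Without both libraries, 0 of the 10 genes were called between RA and control tumors.

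**Figure D5:**
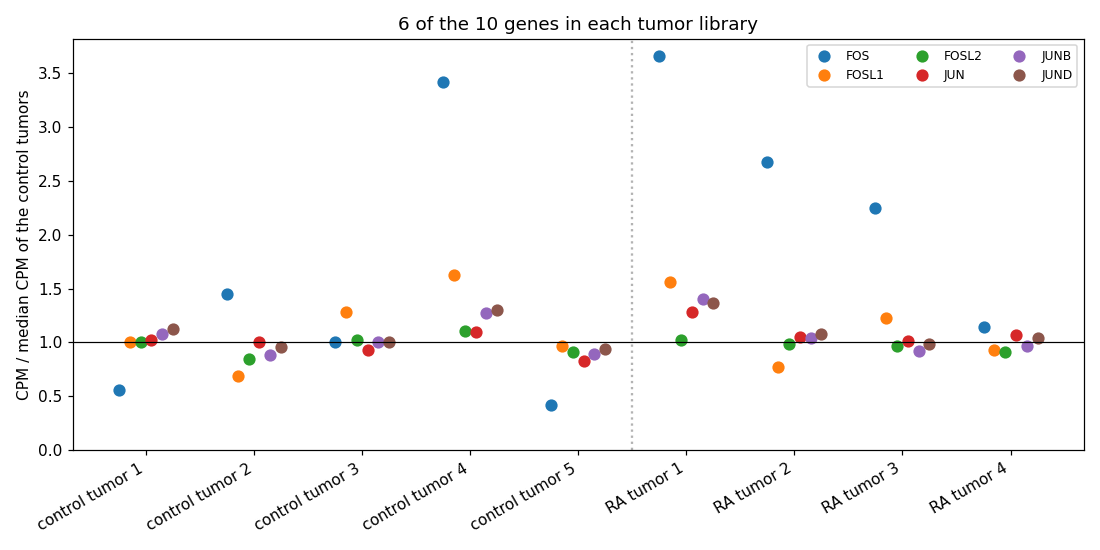
CPM of FOS, FOSL1, FOSL2, JUN, JUNB and JUND in each of the 9 tumor libraries, divided by the median of the 5 control tumors, with 1 point per gene and library and the groups split by the dotted line. FOS has the widest spread, from 0.719 to 6.31 CPM, and control tumor 4 and RA tumor 1 hold the highest value of all 6 genes in their groups.

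The effect of retinoic acid in tumors was also set against that of 6 days of ATRA in culture, as a difference of log2 fold changes in 1 fit of all 17 libraries. Drug isomer, dose, duration and kit differ between the settings and cannot be told apart. Of the 10 genes 0 were called higher and 1 lower (JUND), against 7.78% and 13.1% of all 25787 genes tested, and on FDR alone 1 was higher and 3 lower, against 19.2% and 21.3%. For JUND the effect in tumors was lower than that in culture by a log2 of 1.08 (−1.08 ± 0.16, FDR = 1.93e-05). JUN (−0.78 ± 0.13, FDR = 5.14e-05) and ATF3 (−0.89 ± 0.14, FDR = 2.96e-05) had lower effects in tumors on FDR alone, and FOSL2 (0.86 ± 0.15, FDR = 9.62e-05) had a higher one. The JUND call was lost with no filter on low counts (−0.98). FOSL1 was not called (4.05 ± 1.64, FDR = 0.0562), but it was without DMSO library 2 (4.60) or control tumor 4 (4.24). Its log2 effect in the fit to tumors was −0.01, so the 4.05 came from fitted culture values with 0 counts at 6 days. FOSL1 passed the filter here through tumors and 1 day of ATRA only, so these calls are no support for a difference. Of the ERK feedback and output genes 5 of 14 had a lower effect in tumors, with ETV1 (−5.23 ± 0.58) and ETV5 (−2.69 ± 0.54) furthest apart.

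Between control tumors and DMSO cells, FOSL2 was the FOS family gene whose call held in every setting and did not rest on the filter. The 4 FOS family genes and EGR3 were called higher in tumors, and JUND lower. FOSL1 and EGR3 passed the filter on low counts through other groups, tumors among them, and through no DMSO library, so their calls are no support for a difference. That is 5 higher and 1 lower of 10, against 31.5% and 11.4% of all genes, and on FDR alone 7 were higher and 2 lower, against 42.2% and 29.5%. The log2 differences were 3.46 ± 0.61 for FOSL1, 2.09 ± 0.76 for FOS, 1.34 ± 0.11 for FOSL2, 1.295 ± 0.40 for EGR3, 1.19 ± 0.36 for FOSB and −1.26 ± 0.11 for JUND. The median over all genes was 0.25 here and 0.44 with library totals in place of TMM, and relative to the former FOSL2 was at 1.09, FOSB at 0.95 and JUND at −1.51. The calls of FOS (without DMSO library 1, 2.16, or DMSO library 2, 2.04), FOSB (without DMSO library 2, 0.76) and EGR3 (without DMSO library 2, 1.19) each rested on a DMSO library, and that of FOS was also lost with no filter (2.00). Endothelial markers summed to 0.308 to 0.381 CPM in DMSO cells, below their level in tumors, and leukocyte markers to 0.667 to 0.850 CPM. Their part in these differences was not tested. As counts of human genes in tumors grown in mice, these sums do not give the content of host cells.

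Genes of like pattern were sought for FOS, FOSL1, JUN, EGR1 and ATF3 as the highest Pearson correlation of log2(CPM + 1), as a description over libraries that share a group structure. Over the 8 culture libraries RGS8 (r = 0.999), ADAMTS8 (0.998) and QPRT (0.997) were most like JUN, TLX2 (0.989) and ALX4 (0.987) most like EGR1, and MICALL1 (0.988) and MAFF (0.986) most like ATF3. For FOSL1 these were CCDC66 (0.974) and PTPN9 (0.958), and for FOS ZNF256 (0.956). Over the 9 tumor libraries ARSG (0.978) and PFDN5 (0.977) were most like FOS, DDRGK1 (0.966) most like FOSL1, CCDC130 (0.973) most like JUN, BCL9 (0.918) most like EGR1 and CLEC18B (0.930) most like ATF3. None of the genes named for culture was among the 5 most alike for the same member in tumors.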

How the data were processed

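RNA of 8 cell and 9 tumor libraries was sequenced, with Ribo-Zero Plus (cells) or KAPA RiboErase (tumors) kits. The submitters' processing notes name Trim Galore 0.4.4, STAR 2.7.10a, RSEM 1.3.3 and hg38, and the authors deposited expected counts per gene, not normalized; 7.55% of values in cells and 14.7% in tumors were not whole. The annotation release, strand setting and any removal of mouse reads are not given in the sources used here. The 92 spike-in entries of the cell table were at 0.

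Expected counts were rounded. Genes were filtered with filterByExpr (minimum count 10) and scaled by TMM, and edgeR 4.0.16 (R 4.3.3) fitted its robust quasi-likelihood test to cells, tumors or all 17 libraries (4, 7 and 11 residual degrees of freedom), with p-values adjusted by Benjamini-Hochberg across every tested gene (FDR). Called means an FDR under 0.05 and over 2-fold. SE is the log2 fold change over the root of F. RPKM used GENCODE exon lengths. The scripts were tested on simulated data. The interval on counts covers counting error only. DESeq2 1.42.0 and other settings were tried as alternatives. Named were all 10 members, from each other list up to 4 called genes of the largest change per comparison (a few more are named to complete a count), and genes of like pattern with a mean of at least 1 CPM. The members and gene lists were chosen with earlier results of these data known. Replicate numbers only name libraries. Some genes of the lists are not reported here.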

Additional observations from a re-analysis of the deposited data

Results flagged for a closer look

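The effect of retinoic acid differed between tumors and 6 days of ATRA in culture for 4 genes, by the test of the difference itself (edgeR, FDR under 0.05), against 19.2% of all genes higher and 21.3% lower by the same rule, a share near that of the 10 genes. JUND alone was also over 2-fold. The log2 effect in tumors minus that in culture was 0.86 for FOSL2, −0.78 for JUN, −1.08 for JUND and −0.89 for ATF3. Drug isomer, dose, duration and library kit differ between the settings and cannot be told apart. Each of 20 sets of tumor values (10 genes in 2 groups) was also searched for a library far from the others, and 0 were found.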

How the results depend on the processing

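Of 1181 values of single genes under an alternative, 1100 kept their direction and side of the threshold, 19 lost the call, 32 gained it and 30 changed sign. Dropping the fold threshold, a looser rule for a call, gave 27 of these changes, all of them gained calls. Members called numbered 1 at 1 day, 1 at 3 days, 2 at 6 days, 1 from 1 to 3 days, 0 from 3 to 6 days, 6 in control tumors against DMSO and 1 in the difference of effects. With no fold threshold these were 5, 6, 6, 5, 4, 9 and 4. DESeq2 gave 0, 0, 1 and 0 in the first 4, and the cause was not tested. A minimum count of 50 gave 0, 0, 1 and 0 there and 3 in control tumors against DMSO, since it left FOSL1 and FOSB untested, and EGR3 in the last. The fit to all 17 libraries gave 0 at 1 day, no robust estimation gave 1 at 6 days, and no filter gave 0 in the difference of effects. Leaving out 1 library gave 0 to 1 at 1 day, 0 to 1 at 3 days, 1 to 2 at 6 days, 3 to 6 in control tumors against DMSO and 1 to 2 in the difference. RA against control tumors had 0 in every setting.

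Sign changes were of values not called. Between RA and control tumors FOSL1 was at 0.004 and FOSL2 at 0.0024 with no filter, and without control tumor 4 and RA tumor 1, an alternative chosen after seeing the data, FOSL2 was at 0.0139 and ATF3 at −0.0158. Leaving out 1 library gave log2 ranges of −0.0314 to 0.1015 for FOSL2 and −0.1619 to 0.1357 for JUNB at 1 day; −0.4562 to 0.6336 for FOS, −4.3375 to 0.0591 for FOSL1 and −0.6903 to 0.3335 for EGR3 at 3 days; −1.0519 to 0.0367 for FOS from 1 to 3 days; −0.1039 to 0.9867 for FOS and −4.1685 to 0 for FOSL1 from 3 to 6 days; −0.1956 to 0.1652 for FOSL1, −0.0553 to 0.0387 for FOSL2, −0.0729 to 0.1644 for JUNB and −0.0455 to 0.1508 for JUND in RA tumors; and −0.0609 to 0.8886 for FOS and −0.8865 to 0.3713 for FOSB in the difference.

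Same-numbered libraries did not deviate together (r of −0.025 to 0.012 in cells and −0.334 to 0.108 in tumors), so numbers only name them; with the replicate block the members called were still 1 at 1 day and 2 at 6 days, and no call of a member changed. No paired analysis was possible for control tumors against DMSO, because cultures and mice were numbered apart. Over all genes the calls at 1 day were 554, or 333 with DESeq2, 347 at a minimum count of 50 and 237 in the fit to all 17 libraries. At 3 days they were 1593, or 1054 at a minimum of 50. From 1 to 3 days they were 827, or 546, 539 and 425 in those 3 settings. In control tumors against DMSO they were 11056, or 6105 at a minimum of 50. In RA tumors they were 60, or 122 with DESeq2, 124 with no filter, 37 at a minimum of 50, 157 in the fit to all 17 libraries, 12 with the replicate block, 36 without control tumor 4 and RA tumor 1, and 24 to 160 without 1 library. Depth limits FOS, FOSB, FOSL1 and EGR3 in culture, with at most 32 counts a library.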
